A study of Homo sapiens with 2 samples.

Results

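The enzymes and transporters that carry glucose to pyruvate and lactate, the enzymes that steer pyruvate into the mitochondrion, and the enzymes of the pentose phosphate route were compared between MTAC-P, a human lung cancer line derived from PC9 that resists EGFR tyrosine kinase inhibitors (EGFR-TKI), and its parent PC9, a lung adenocarcinoma line with an activating EGFR mutation. The gene set was given as 37 symbols, and the rows of the transcript tables whose gene name equalled a symbol were summed. This found 36 genes of 30843 in all. PKM2, an older symbol of the pyruvate kinase gene, had no rows, and the tables give that gene as PKM, which is described beside the set. Each line had 1 RNA-seq library, of total RNA from cells grown in DMEM with serum. No inhibitor at harvest and no other treatment is given in the labels, and the series text speaks of triplicates where each line has 1 column of values. MTAC-P is a single derived line, so a difference from PC9 has no replicate check and cannot be told apart from a difference between 2 cultures.

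Glycolysis splits glucose into pyruvate in the cytosol and yields ATP, and in tumour cells much of the pyruvate is reduced to lactate and exported. The pyruvate dehydrogenase complex is the alternative exit, turning pyruvate into acetyl-CoA in mitochondria, and its kinases switch it off. The pentose phosphate route branches from glucose phosphate, makes NADPH in its oxidative arm, and returns sugar phosphates to glycolysis through transketolase and transaldolase. EGFR signalling in lung cancer cells is known to raise glucose uptake and glycolysis, and the factors HIF1A, MYC and NFE2L2 (NRF2) are known regulators of these genes.

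Values are FPKM, fragments scaled to transcript length and library size. The libraries summed to 685082 FPKM in MTAC-P and 693444 FPKM in PC9 over the listed transcripts, and read numbers are not given. The epithelial markers EPCAM, CDH1, KRT7, KRT8, KRT18 and KRT19 were present in both lines, summing to 3871 FPKM in MTAC-P and 3660 FPKM in PC9. Of the lung adenocarcinoma markers, NKX2-1 was listed at 0 in MTAC-P and stood at 0.0787 FPKM in PC9, and NAPSA, SFTPB and SFTPC lay between 1.001 and 2.80 FPKM over both lines. The leukocyte, fibroblast and endothelial markers summed to 29.6, 2.31 and 4.18 FPKM in MTAC-P and to 23.6, 1.94 and 3.40 FPKM in PC9, and of these markers only CD68, COL1A1 and CDH5 had a mean of 1 or more. PTPRC, the marker shared by leukocytes, stood at 0.0460 FPKM in MTAC-P and 0.0910 FPKM in PC9. Their part in the results was not tested. Genes were compared as the log2 ratio, log2((MTAC-P + 1)/(PC9 + 1)), where the mean over both libraries was at least 1 FPKM. The added 1 understates differences of genes with low levels.

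With 1 added to each value no member reached a 2-fold difference. Without it, the plain ratios of PDK3 (0.373) and ALDOA (0.463) were beyond 2-fold, and with 0.1 added these 2 members were at least 2-fold lower in MTAC-P. Of the 36 genes found, 35 were compared and PDK4 lay under the minimum. With 1 added, none of the 35 reached 2-fold in either direction, where 3.48% of the 11435 genes compared were higher by that much in MTAC-P and 4.29% lower, 7.77% together. At 1.5-fold, 3 members were higher (SLC16A1, SLC16A3 and PDK1) and 3 were lower (ALDOA, PDK2 and PDK3), where 8.96% and 11.2% of all genes were, 20.2% together. The median log2 ratio of the 35 genes was 0.02, with a range from -0.90 to 0.97, and the median over all genes was -0.02, with 95% of genes between -1.27 and 1.17. There were 18 members above 0 and 17 below, and 29 of the 35 lay within 0.5 of 0, where 74.7% of all genes did. Where the minimum was 5 FPKM, 5.48% of 7870 genes were 2-fold apart, and none of the 30 members left was. The latter follows from none of the 35 having reached 2-fold.

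**Figure D1:**
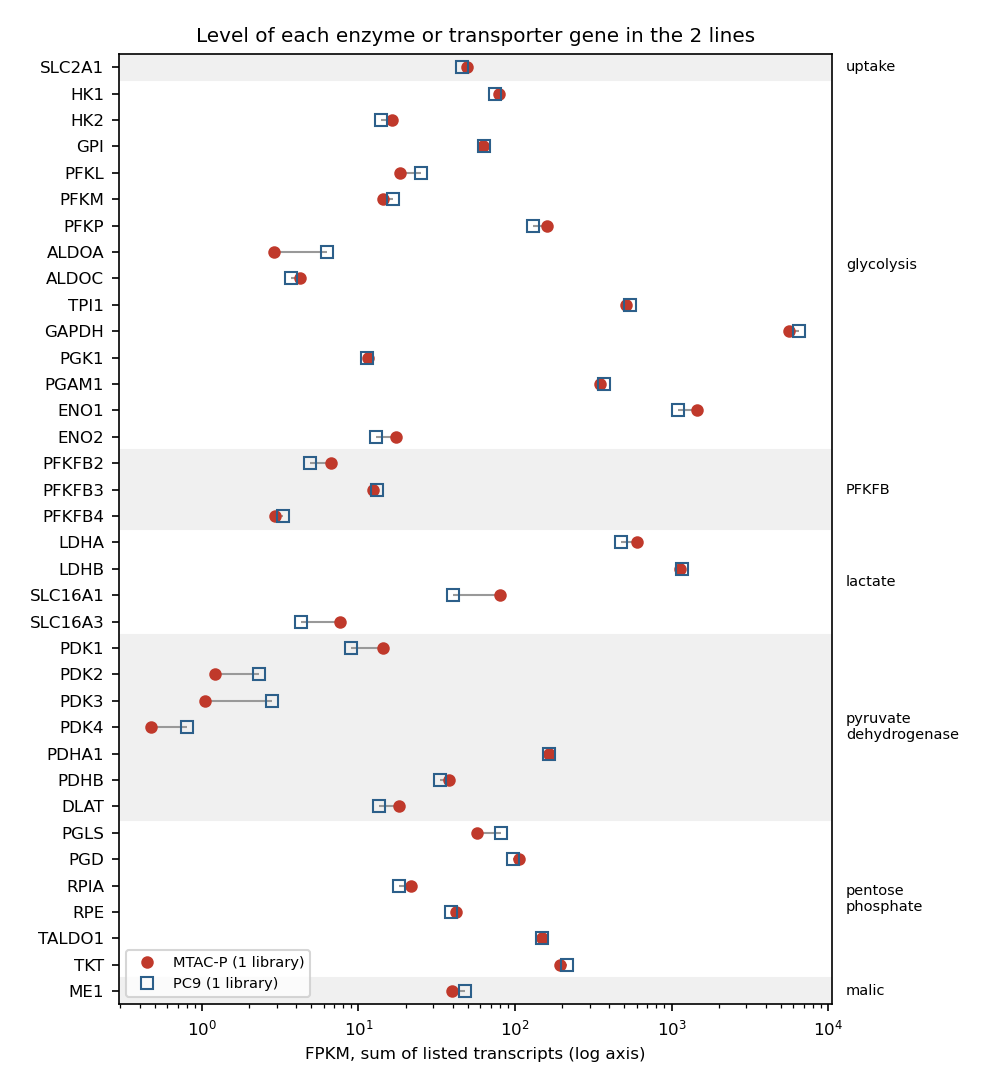
Level of each of the 36 genes in FPKM on a log axis, with 1 filled circle for the MTAC-P library and 1 open square for the PC9 library, grouped by step. The symbols of most genes overlap or nearly touch, and the widest gaps are those of PDK3, ALDOA, SLC16A1, PDK2 and SLC16A3.

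All 36 genes together made up 1.61% of the listed FPKM in MTAC-P and 1.66% in PC9. GAPDH, the enzyme that oxidises glyceraldehyde phosphate, stood at 5593 FPKM in MTAC-P and 6542 FPKM in PC9 and ranked 15 of all symbols by its mean. The other 14 glycolysis members together summed to 2763 FPKM in MTAC-P and 2421 FPKM in PC9. With GAPDH the 15 summed to 8355 FPKM in MTAC-P and 8963 FPKM in PC9, so the sum is lower in MTAC-P with GAPDH and higher without it. The largest of the 14 was ENO1, at 1464 FPKM in MTAC-P and 1101 FPKM in PC9, from 1 of 9 coding transcripts. The direction of these sums therefore hangs on GAPDH and ENO1 and is not that of the genes in general.

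The glycolysis genes, from uptake to enolase, had log2 ratios within 0.5 of 0 in both directions, with the exception of ALDOA at -0.90. Of 15 compared, 8 were above 0 and 7 below, and the median log2 ratio was 0.02. SLC2A1, the glucose transporter GLUT1 (chromosome 1, 42925375 to 42959176), stood at 49.0 FPKM in MTAC-P and 46.0 FPKM in PC9, a log2 ratio of 0.09. The hexokinases, which trap glucose in the cell as its phosphate, were close as well: HK1 stood at 79.1 FPKM in MTAC-P and 75.0 FPKM in PC9 (log2 ratio 0.08), and the insulin- and hypoxia-responsive HK2 at 16.4 FPKM in MTAC-P and 13.9 FPKM in PC9 (0.22). GPI, which interconverts glucose and fructose phosphate, stood at 62.3 FPKM in MTAC-P and 63.8 FPKM in PC9 (-0.03). Its main transcript GPI-201 stood at 51.5 FPKM in MTAC-P and 43.8 FPKM in PC9, and GPI-202 at 10.8 FPKM in MTAC-P and 19.9 FPKM in PC9. HK2-201 was 59.0% of HK2 in MTAC-P and 62.9% in PC9, and HK2-202 the remainder. By the listed transcripts HK1 held 82.9% of the HK1 and HK2 sum in MTAC-P and 84.4% in PC9. That sum leaves out HKDC1, a hexokinase outside the gene set. HKDC1 stood above HK2, at 23.9 FPKM in MTAC-P and 22.3 FPKM in PC9 (0.10). For HK1, 5 of 10 coding transcripts were listed, and for HK2, 2 of 2.

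The HK1 sum was made of transcripts that did not all have the same ratio. A listed transcript absent from GENCODE 29 stood at 17.6 FPKM in MTAC-P and 12.9 FPKM in PC9 (log2 ratio 0.41). It made up 22.2% of HK1 in MTAC-P and 17.2% in PC9. HK1-202, which encodes the widely expressed enzyme whose N-terminal stretch binds the outer mitochondrial membrane, stood at 55.8 FPKM in MTAC-P and 61.5 FPKM in PC9. HK1-201, which RefSeq pairs with the red cell form (HKI-R) that lacks this stretch, stood at 5.60 FPKM in MTAC-P and 0.585 FPKM in PC9, a log2 ratio of 2.06. That transcript made up 7.09% of HK1 in MTAC-P and 0.780% in PC9. Both use the same later exons, so that 92.9% of the HK1-201 bases are also in HK1-202, and their summed FPKM was 61.4 in MTAC-P and 62.1 in PC9. The 2 transcripts also differ outside their coding parts, and which bases the values rest on was not tested. The coding bases that tell them apart are shown here. They lie at chr10:69315955-69316014 for HK1-201 and chr10:69318948-69319010 for HK1-202 (GRCh38, plus strand, from GENCODE release 29), capitals mark the bases coded by the transcript's own exon, and the 30 lower-case bases are shared.
HK1-201: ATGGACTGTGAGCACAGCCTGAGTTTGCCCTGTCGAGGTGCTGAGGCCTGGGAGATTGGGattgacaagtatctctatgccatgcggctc
HK1-202: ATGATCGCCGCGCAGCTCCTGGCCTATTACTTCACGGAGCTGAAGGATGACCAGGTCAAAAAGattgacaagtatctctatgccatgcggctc

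Phosphofructokinase, which commits sugar to glycolysis, is built from 3 subunit types. PFKP, the platelet type, was the most abundant by the listed transcripts, at 161 FPKM in MTAC-P and 130 FPKM in PC9 (log2 ratio 0.31). The liver type PFKL stood at 18.5 FPKM in MTAC-P and 24.9 FPKM in PC9 (-0.41), and the muscle type PFKM at 14.3 FPKM in MTAC-P and 16.7 FPKM in PC9 (-0.21). PFKP therefore held 83.1% of the listed phosphofructokinase sum in MTAC-P and 75.7% in PC9, while the sum itself had a log2 ratio of 0.17. Of the annotated coding transcripts, 7 of 9 were listed for PFKP, 1 of 2 for PFKL and 3 of 21 for PFKM. These shares therefore depend on which transcripts were listed.

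Within PFKP the full-length transcript was nearly equal in the lines, and some of the short ones differed widely. PFKP-203, with a complete coding sequence, stood at 60.6 FPKM in MTAC-P and 58.4 FPKM in PC9 (log2 ratio 0.05). PFKP-204, a 705 nt transcript with its own exon at the start and an incomplete end, stood at 22.1 FPKM in MTAC-P and 0.134 FPKM in PC9 (4.35). PFKP-207, a 658 nt non-coding transcript from the same stretch, stood at 3.2e-05 FPKM in MTAC-P and 11.3 FPKM in PC9 (-3.63). The annotation gives 71.1% of the bases of PFKP-204 to PFKP-207 as well and 89.9% to PFKP-203. PFKP-208, a 453 nt transcript, stood at 41.9 FPKM in MTAC-P and 37.3 FPKM in PC9, and PFKP-205 at 26.2 FPKM in MTAC-P and 17.1 FPKM in PC9. How reads were split among overlapping transcripts was not tested.

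Aldolase, triose phosphate isomerase and the enzymes after it covered a wide range of levels. ALDOA, the main aldolase of most cells, stood at only 2.91 FPKM in MTAC-P and 6.27 FPKM in PC9 (log2 ratio -0.90), and 2 of its 15 annotated coding transcripts were listed, so these values leave most of its transcripts uncounted. With 0.1 added in place of 1, ALDOA passed 2-fold, at a log2 ratio of -1.08. ALDOC, the brain-type aldolase, stood at 4.23 FPKM in MTAC-P and 3.71 FPKM in PC9 (0.15). TPI1, the triose phosphate isomerase, stood at 512 FPKM in MTAC-P and 542 FPKM in PC9 (-0.08). PGK1, phosphoglycerate kinase, stood at 11.5 FPKM in MTAC-P and 11.3 FPKM in PC9 (0.02), from 1 of 2 coding transcripts. PGAM1, phosphoglycerate mutase, stood at 349.7 FPKM in MTAC-P and 373 FPKM in PC9 (-0.09). GAPDH had a log2 ratio of -0.23, and its 2 most abundant transcripts, GAPDH-204 (-0.20) and GAPDH-202 (-0.31), lay on the same side.

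Enolase was the step with the highest ratios of the chain. ENO1, the ubiquitous enolase (chromosome 1, 8861000 to 8879250), stood at 1464 FPKM in MTAC-P and 1101 FPKM in PC9, and ENO2, the neuronal enolase, at 17.4 FPKM in MTAC-P and 12.9 FPKM in PC9. Each had a log2 ratio of 0.41, and each rests on 1 listed transcript. ENO1 made up 98.8% of the enolase sum in either line. GAPDH, LDHA, PGAM1, TPI1 and other members have processed pseudogenes that can share their reads. The pseudogene rows of GAPDH, 26 symbols, summed to 0.495 FPKM in MTAC-P and 0.152 FPKM in PC9, and those of LDHA, 3 symbols, to 32.4 FPKM in MTAC-P and 27.2 FPKM in PC9, or 5.40% and 5.73% of LDHA itself.

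Pyruvate kinase closes glycolysis and comes in an M2 form, typical of tumour and proliferating cells, and an M1 form of muscle and brain, made by choosing between alternative exons of PKM. PKM stood at 428 FPKM in MTAC-P and 430.4 FPKM in PC9, a log2 ratio of -0.01. PKM-202, which carries the M2 exon, stood at 416 FPKM in MTAC-P and 423 FPKM in PC9. PKM-201, which carries the M1 exon, stood at 2.08 FPKM in MTAC-P and 1.09 FPKM in PC9. PKM-202 was thus 97.1% of the listed PKM sum in MTAC-P and 98.4% in PC9, and PKM-201 was 0.485% in MTAC-P and 0.252% in PC9. Of 14 annotated coding transcripts of PKM, 3 were listed, so that M1 or M2 transcripts with later identifiers were not counted. The exons have 167 bases each, lie at chr15:72202454-72202620 (M2) and chr15:72203022-72203188 (M1) of GRCh38 on the minus strand, and are printed to show what separates them. Capitals mark the 62 positions where they differ.
PKM-202: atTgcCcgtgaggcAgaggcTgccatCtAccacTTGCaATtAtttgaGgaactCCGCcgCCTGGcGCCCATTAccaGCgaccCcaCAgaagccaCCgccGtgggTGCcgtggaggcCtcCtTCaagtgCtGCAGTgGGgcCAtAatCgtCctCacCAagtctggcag
PKM-201: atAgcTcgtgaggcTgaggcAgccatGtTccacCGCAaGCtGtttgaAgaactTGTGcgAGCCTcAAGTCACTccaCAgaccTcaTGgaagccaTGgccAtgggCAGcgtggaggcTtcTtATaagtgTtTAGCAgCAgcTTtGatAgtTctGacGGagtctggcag

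The PFKFB enzymes set the level of fructose bisphosphate that activates phosphofructokinase. PFKFB3, the form with the strongest kinase activity, stood at 12.4 FPKM in MTAC-P and 13.1 FPKM in PC9 (log2 ratio -0.07). PFKFB2 stood at 6.64 FPKM in MTAC-P and 4.93 FPKM in PC9 (0.37), and the hypoxia-responsive PFKFB4 at 2.94 FPKM in MTAC-P and 3.31 FPKM in PC9 (-0.13). Within PFKFB3 the share of PFKFB3-205 was 79.9% in MTAC-P and 51.4% in PC9, and that of PFKFB3-203 was 15.8% in MTAC-P and 35.4% in PC9. The sum over these 3 genes had a log2 ratio of 0.04.

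**Figure D2:**
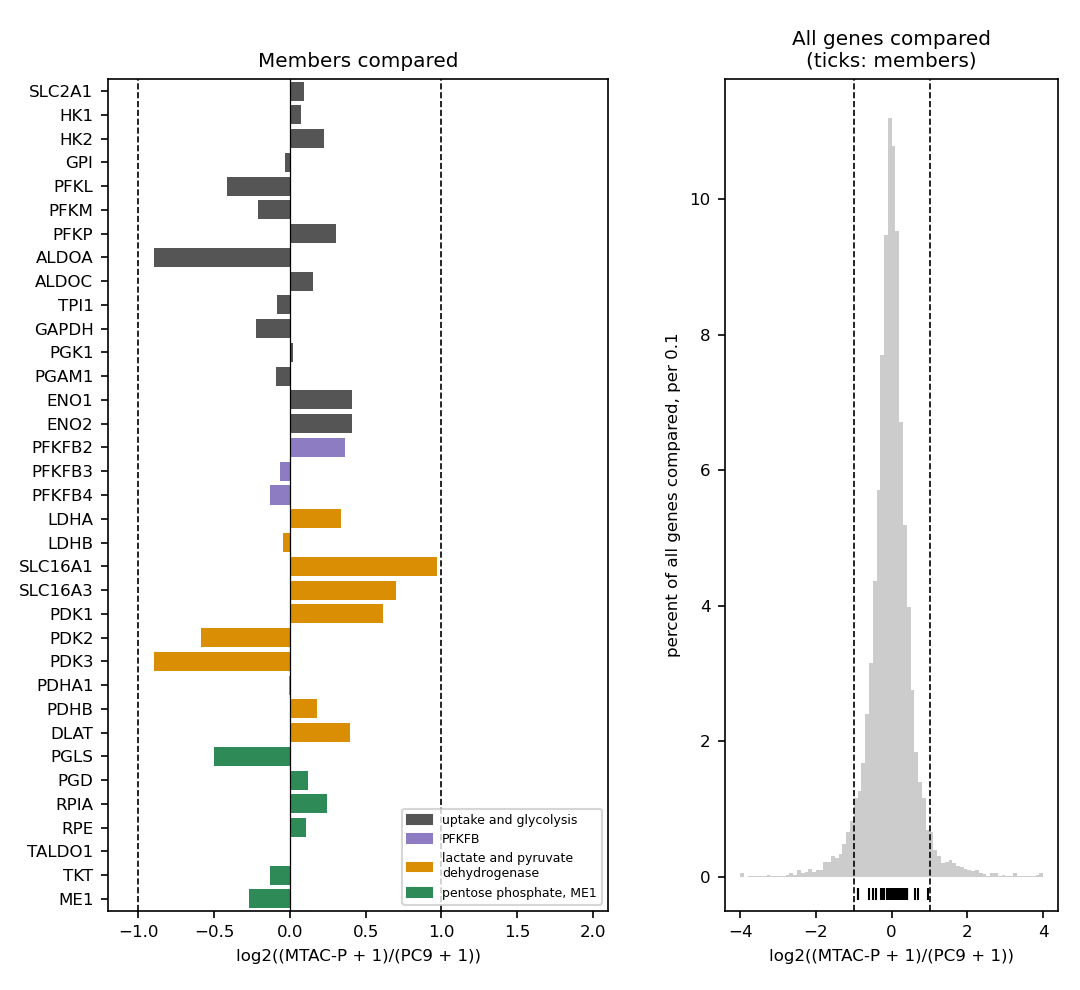
Left, log2 ratio of MTAC-P over PC9 for each of the 35 members compared, as bars coloured by route, with dashed lines at 2-fold. Right, the percent of all 11435 genes in each step of 0.1 of the same ratio, with values beyond 4 placed in the end bins and the members as ticks. No bar reaches a dashed line, and SLC16A1 at 0.97 comes closest.

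The lactate transporters had the highest ratios of the set. SLC16A1, the monocarboxylate transporter MCT1 that moves lactate and pyruvate with protons across the membrane (chromosome 1, 112911847 to 112957013), stood at 79.7 FPKM in MTAC-P and 40.3 FPKM in PC9, a plain ratio of 1.98 and a log2 ratio of 0.97. A single transcript, SLC16A1-201, gave 99.5% of this sum in MTAC-P and 99.1% in PC9, at 79.3 FPKM in MTAC-P and 39.9 FPKM in PC9. SLC16A3, the lactate exporter MCT4 of glycolytic cells, was low, at 7.58 FPKM in MTAC-P and 4.29 FPKM in PC9 (log2 ratio 0.70), with 2 of its 16 coding transcripts listed. BSG, the membrane chaperone of both transporters, stood at 309.96 FPKM in MTAC-P and 346 FPKM in PC9 (-0.16). SLC16A7, the related transporter MCT2, lay under the minimum level, at 1.11 FPKM in MTAC-P and 0.434 FPKM in PC9.

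Lactate dehydrogenase is a tetramer of the LDHA subunit, which favours lactate formation, and the LDHB subunit, which favours its oxidation. LDHA stood at 600.3 FPKM in MTAC-P and 476 FPKM in PC9 (log2 ratio 0.34), and LDHB at 1133 FPKM in MTAC-P and 1167 FPKM in PC9 (-0.04). LDHA was 34.6% of their sum in MTAC-P and 28.96% in PC9, so LDHB was the more abundant by the listed transcripts in each line. Of LDHB, 98.1% in MTAC-P and 98.7% in PC9 came from LDHB-202, a transcript of 744 nt with an incomplete end.

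In LDHA, too, the full-length transcript was nearly equal in the lines. LDHA-203, which encodes the complete subunit, stood at 245 FPKM in MTAC-P and 251 FPKM in PC9 (log2 ratio -0.04). LDHA-206, which lacks an exon of 174 bases, stood at 252 FPKM in MTAC-P and 172 FPKM in PC9 (0.55). LDHA-201, which skips the exon before the last, stood at 80.1 FPKM in MTAC-P and 41.3 FPKM in PC9 (0.94), and LDHA-204 at 17.1 FPKM in MTAC-P and 6.27 FPKM in PC9 (1.32). LDHA-203 was 40.7% of LDHA in MTAC-P and 52.7% in PC9, and LDHA-206 was 42.0% in MTAC-P and 36.1% in PC9. Of the bases of LDHA-206, 94.3% are also in LDHA-203. The exon that separates them, 58 codons long and in frame, lies at chr11:18400837-18401010 (GRCh38, plus strand) and is printed in capitals within 12 bases of its neighbours.
LDHA-203: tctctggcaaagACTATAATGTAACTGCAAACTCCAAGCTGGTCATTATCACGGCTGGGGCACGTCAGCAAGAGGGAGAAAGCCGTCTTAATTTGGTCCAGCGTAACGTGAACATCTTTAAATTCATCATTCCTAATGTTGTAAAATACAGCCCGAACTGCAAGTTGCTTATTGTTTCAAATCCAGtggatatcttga

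The kinases that inactivate pyruvate dehydrogenase had log2 ratios on both sides of 0. PDK1, the hypoxia-induced form, stood at 14.3 FPKM in MTAC-P and 8.97 FPKM in PC9 (log2 ratio 0.61). PDK3 stood at 1.04 FPKM in MTAC-P and 2.80 FPKM in PC9 (-0.89), and PDK2 at 1.21 FPKM in MTAC-P and 2.32 FPKM in PC9 (-0.59). PDK4, which responds to fasting in many tissues, stood at 0.474 FPKM in MTAC-P and 0.806 FPKM in PC9 and was not compared. PDK1 thus held 83.9% of the listed kinase sum in MTAC-P and 60.2% in PC9, with a log2 ratio of the sum of 0.18. Of the annotated coding transcripts, 4 of 6 were listed for PDK1, 1 of 8 for PDK2, 1 of 2 for PDK3 and 1 of 1 for PDK4. The kinase shares therefore depend on which transcripts were listed. PDK2 and PDK3 had means under 2 FPKM, where the added 1 weighs most: with 0.1 in its place PDK3 had a log2 ratio of -1.34.

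PDK1 was spread over several transcripts, short ones among them. PDK1-204, a 699 nt transcript with an incomplete end, stood at 3.51 FPKM in MTAC-P and was listed at 0 in PC9. The complete transcripts PDK1-203, at 5.20 FPKM in MTAC-P and 3.25 FPKM in PC9, and PDK1-201, at 4.29 FPKM in MTAC-P and 3.26 FPKM in PC9, had log2 ratios of 0.54 and 0.31. Every base of PDK1-204 is also in PDK1-203. PDK1-205, a 728 nt transcript annotated as a target of nonsense-mediated decay, stood at 0.355 FPKM in MTAC-P and 1.43 FPKM in PC9, the other way round, with a mean under the minimum.

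The pyruvate dehydrogenase complex itself was close in the 2 lines by the listed transcripts. PDHA1, the alpha subunit of its E1 enzyme, stood at 164 FPKM in MTAC-P and 165 FPKM in PC9 (log2 ratio 0.00 after rounding). Of PDHA1, 59.2% in MTAC-P and 58.1% in PC9 came from PDHA1-202, a 709 nt transcript with 327 coding nt. PDHA1-206, with 1170 coding nt, made up 4.48% in MTAC-P and 5.37% in PC9. PDHB, the beta subunit, stood at 37.9 FPKM in MTAC-P and 33.3 FPKM in PC9 (0.18). DLAT, the E2 acetyltransferase, stood at 18.1 FPKM in MTAC-P and 13.5 FPKM in PC9 (0.40). Its transcripts went opposite ways: DLAT-202 stood at 17.4 FPKM in MTAC-P and 9.64 FPKM in PC9, and DLAT-201 at 0.680 FPKM in MTAC-P and 3.88 FPKM in PC9, a log2 ratio of -1.54. DLAT-202 codes for 1626 nt where DLAT-201 codes for 1941 nt, and all its bases are in DLAT-201. The median over the 10 lactate and pyruvate dehydrogenase genes compared was 0.26, with 6 above 0 and 4 below.

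**Figure D3:**
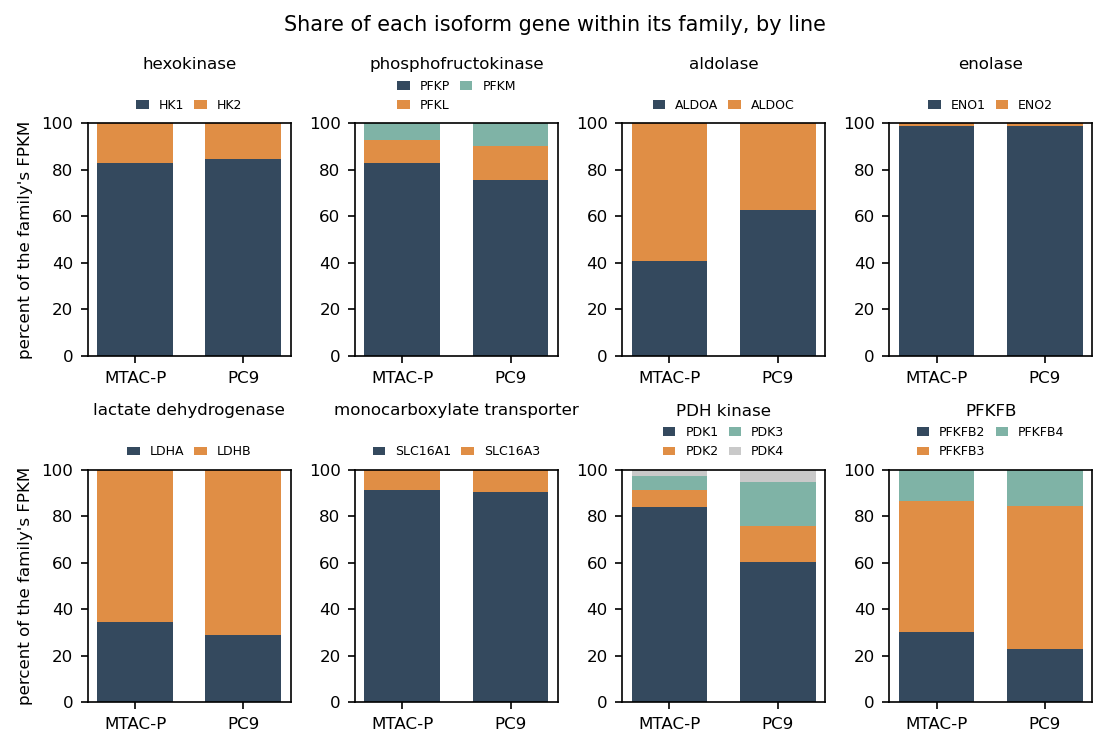
Stacked bars give the percent of each family's summed FPKM that each gene holds, with MTAC-P left and PC9 right in each panel, 1 library each. Sums are over listed transcripts, and the part of the coding transcripts that was listed differs between genes of a family. Only genes of the set are counted, so HKDC1 is not in the hexokinase panel. PDK1 holds 83.9% of the kinase sum in MTAC-P and 60.2% in PC9, and PFKP holds 83.1% of phosphofructokinase in MTAC-P and 75.7% in PC9, while enolase shares are 98.8% for ENO1 in either line.

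Of the 6 pentose phosphate genes, 3 lay above 0 and 3 below, and none reached 1.5-fold. Their median log2 ratio was 0.05 and their sum was 571 FPKM in MTAC-P and 599 FPKM in PC9. In the oxidative arm, PGLS, the lactonase, stood at 57.5 FPKM in MTAC-P and 81.5 FPKM in PC9 (log2 ratio -0.50), the widest difference of the route. PGD, the dehydrogenase that makes NADPH from phosphogluconate, stood at 105 FPKM in MTAC-P and 96.9 FPKM in PC9 (0.12). Either value rests on 1 listed transcript.

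In the non-oxidative arm, TALDO1, transaldolase, stood at 149.5 FPKM in MTAC-P and 149.6 FPKM in PC9. TKT, transketolase, stood at 195 FPKM in MTAC-P and 213 FPKM in PC9 (log2 ratio -0.13). RPIA, the ribose phosphate isomerase, stood at 21.8 FPKM in MTAC-P and 18.2 FPKM in PC9 (0.25), and RPE, the ribulose phosphate epimerase, at 42.0 FPKM in MTAC-P and 39.0 FPKM in PC9 (0.10). Within TKT the share of TKT-201 was 59.9% in MTAC-P and 50.5% in PC9 and that of TKT-202 was 29.6% in MTAC-P and 39.2% in PC9. ME1, the cytosolic malic enzyme, which also makes NADPH and is a known NRF2 target, stood at 39.7 FPKM in MTAC-P and 48.2 FPKM in PC9 (-0.27).

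Of the pentose genes, only RPE, with 8 listed transcripts, and TKT, with 3, had more than 1 listed. Of these 2 genes, RPE had the transcripts that differed most. RPE-202, the main transcript, stood at 23.4 FPKM in MTAC-P and 21.8 FPKM in PC9 (log2 ratio 0.10). RPE-204, which begins its coding part further downstream, stood at 7.76 FPKM in MTAC-P and 0.0366 FPKM in PC9 (3.08). RPE-207 stood at 3.22 FPKM in MTAC-P and 12.2 FPKM in PC9 (-1.65). The sum of RPE-204 and RPE-207 was 10.98 FPKM in MTAC-P and 12.2 FPKM in PC9, and 96.8% of the bases of RPE-204 are in RPE-207. RPE-207 differs from RPE-202 in its coding part by 4 bases at the start of the last exon, chr2:210019669-210019672 (GRCh38, plus strand), which shift its reading frame and leave 9 coding bases after the junction. The junction is shown because it is all that parts the coding sequences, and capitals mark the bases RPE-207 lacks.
RPE-202: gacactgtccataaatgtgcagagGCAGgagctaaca
RPE-207: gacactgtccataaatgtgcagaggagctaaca

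Counted by transcript, 76 of 114 listed member transcripts had a mean of at least 1 FPKM, and 10 of these (13.2%) were at least 2-fold apart, 6 higher and 4 lower, where 16.6% of the 19406 transcripts compared were, 7.76% higher and 8.88% lower. The 10 belonged to 7 genes and include PDK1-204, listed at 0 in PC9. HK1-201, PFKP-204, PFKP-207, RPE-204, DLAT-201 and ALDOA-202 also stood under 1 FPKM in 1 of the lines. These transcripts passed the minimum mainly through the line where they were high. Of the 19 members with 2 or more transcripts compared, 2 (PFKP and RPE) held 1 transcript at least 2-fold higher and another at least 2-fold lower, where 6.70% of 4641 such genes did. ALDOA-202, at 0.0738 FPKM in MTAC-P and 1.94 FPKM in PC9, and PFKP-201, at 8.77 FPKM in MTAC-P and 3.82 FPKM in PC9, are the ones of the 10 whose values are not given above.

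**Figure D4:**
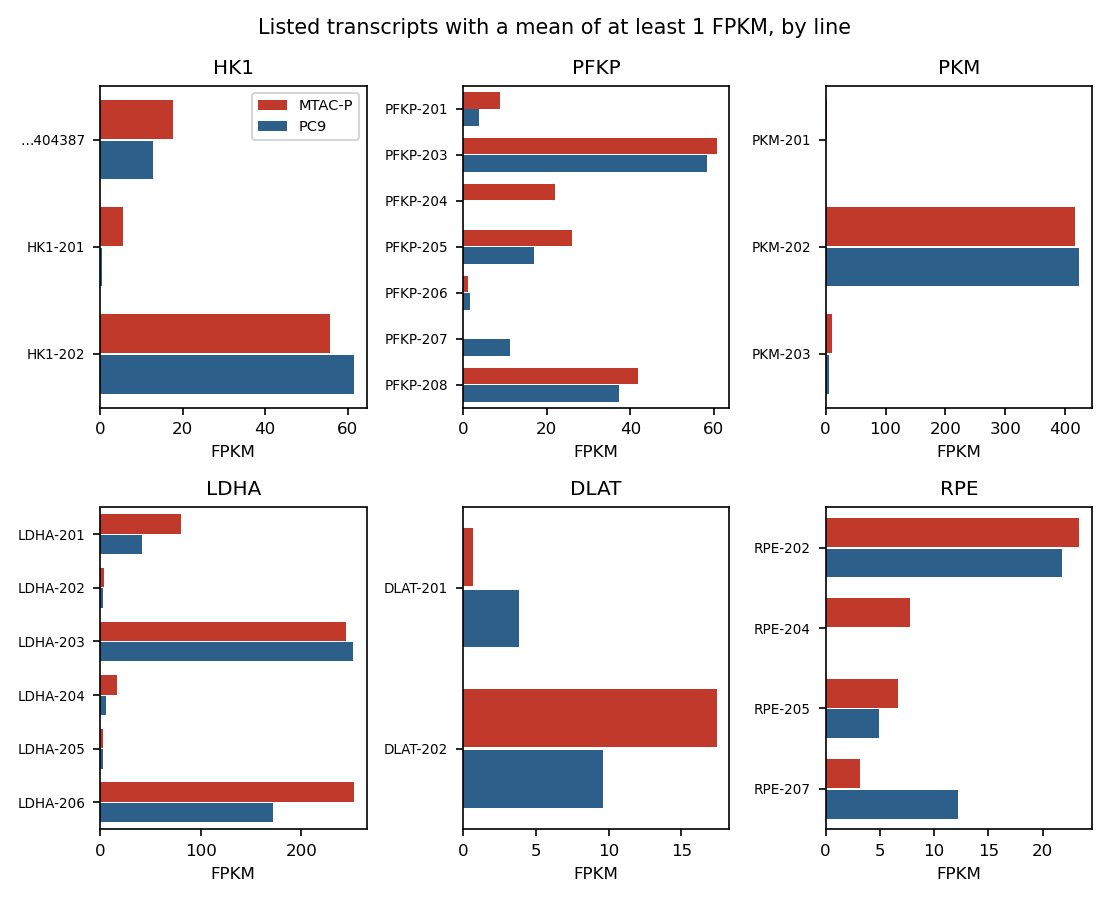
FPKM of each listed transcript with a mean of at least 1 in HK1, PFKP, PKM, LDHA, DLAT and RPE, with MTAC-P above PC9 in each pair of bars and an axis of its own for each gene. The main transcripts of HK1, PFKP, PKM and RPE are of near equal length in the 2 lines, and PFKP-204, PFKP-207 and RPE-204 have a visible bar in 1 line only.

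Other genes of these pathways were counted the same way, where 7.77% of all genes compared were at least 2-fold apart. These lists are short, so their counts of such genes are not read as results about the lists. Of 14 other glycolysis isozymes and gluconeogenesis genes compared, none was 2-fold apart and the median log2 ratio was -0.12. The 2 most abundant were FBP1, which reverses the phosphofructokinase step, at 62.1 FPKM in MTAC-P and 60.4 FPKM in PC9, and PGM1, phosphoglucomutase, at 40.0 FPKM in MTAC-P and 45.6 FPKM in PC9. Muscle and germ cell forms (ENO3, PGAM2, PGK2 and GAPDHS) were listed at 0 in both lines. Of 7 other lactate and pyruvate genes none was 2-fold apart (median -0.16), and the pyruvate carrier subunit MPC2 stood at 127 FPKM in MTAC-P and 116 FPKM in PC9.

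Of all genes compared, 4.29% were at least 2-fold lower and 3.48% higher. Of 13 other pentose and NADPH genes, 1 was 2-fold lower and none higher, with a median log2 ratio of -0.17. It was IDH1, the cytosolic isocitrate dehydrogenase, another source of NADPH, at 28.5 FPKM in MTAC-P and 68.4 FPKM in PC9 (-1.23). TXNRD1, thioredoxin reductase, which uses NADPH and is a known NRF2 target, stood at 438 FPKM in MTAC-P and 468 FPKM in PC9 (-0.09). Among 10 regulators compared none was 2-fold apart (median -0.04), where 7.77% of all genes compared were. HIF1A stood at 81.3 FPKM in MTAC-P and 59.5 FPKM in PC9 (0.44). MYC stood at 43.1 FPKM in MTAC-P and 30.2 FPKM in PC9 (0.50), and NFE2L2 at 36.5 FPKM in MTAC-P and 26.9 FPKM in PC9 (0.43).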

How the data were processed

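RNA-seq of total RNA from 1 library of MTAC-P and 1 of PC9 was used. Trim Galore, TopHat and Cufflinks are named with hg38, per the submitters' processing notes; the versions and annotation release used are not given in the sources used here. Each deposited table holds 1 value per Ensembl transcript, taken as FPKM because Cufflinks is named; the tables name no unit and hold no counts. Each table has 65535 transcripts and ends at identifier 437205, so transcripts with later identifiers were not analysed here: of 242 coding transcripts that GENCODE 29 (GRCh38) gives the 36 genes, 98 were listed, and 5 genes had all of theirs. Names, coordinates, transcript types and printed sequences come from GENCODE 29, which matched 84.5% of identifiers; RefSeq pairings are GENCODE's.

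Values were summed per symbol (Python 3.11.15, pandas 2.3.3). A mean of at least 1 FPKM and log2 ratios with 1 added were used, with 2-fold as the size of difference counted. With 1 library per line there is no test, p-value or error, and depth is unknown. The steps were checked on simulated tables made from the PC9 values, with some genes raised or lowered 4-fold and no noise added. That checks the arithmetic only and gives no measure of precision, least of all at low levels. The genes, lists and thresholds were chosen with earlier results of these data known. The rule for names took all members, transcripts that were the main one of a member or held at least 25% of it, and from each other list the genes at 2-fold or otherwise the 2 most abundant; not every transcript it allows is printed. PKM, HKDC1, SLC16A7, TXNRD1, MYC, NFE2L2, UAP1, GFPT1, ACO1, the isozymes listed at 0 and the remaining transcripts were named after their values were seen. Some genes of these routes are not reported here.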

Additional observations from a re-analysis of the deposited data

How the results depend on the processing

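No paired analysis was possible because MTAC-P and PC9 have 1 library apiece, and no replicate could be left out. Members at least 2-fold higher numbered 0 and at least 2-fold lower 0 in every alternative except 2: with 0.1 in place of 1 added, 2 were lower (ALDOA at -1.08 and PDK3 at -1.34), and at 1.5-fold 3 were higher and 3 lower. Since none reached 2-fold before, the count could only stay at 0 with 5 added, at 4-fold or at a mean of at least 5. The same holds for members with at least 50% of coding transcripts listed. These alternatives are therefore no check of the count. Of 310 values of single members under alternatives, these 2 were the ones that passed 2-fold. All genes at 2-fold apart, 888, became 1344 with 0.1 added, 284 with 5 added, 431 at a mean of at least 5, 2307 at 1.5-fold and 174 at 4-fold. Member transcripts at 2-fold, 10, became 4 with 5 added and 5 at a mean of at least 5. The glycolysis median lay between -0.0011 and 0.075, with its sign below 0 when values were scaled without mitochondrial genes, and the pentose phosphate median between 0.026 and 0.107. The lactate and pyruvate dehydrogenase median, 0.26, was 0.37 at a mean of at least 5, 0.081 with the most abundant transcript only and 0.089 with members that had at least 50% of coding transcripts listed, an alternative added after seeing the data, as was PKM in place of PKM2 (glycolysis median 0.0080). For these shifts the cause was not tested. Depth is unknown, so values near the minimum, such as PDK2 and PDK3, have no precision given.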

Other observations

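The pathways that glycolysis feeds were counted the same way, where 3.48% of all genes compared were at least 2-fold higher and 4.29% lower. These lists are short too, so their counts are not read as results about the lists. Of 10 glycogen and hexosamine genes compared, 1 was 2-fold higher and none lower, with a median log2 ratio of 0.05. It was GBE1, the glycogen branching enzyme, at 8.42 FPKM in MTAC-P and 3.45 FPKM in PC9 (1.08). UAP1, which makes the last sugar nucleotide of the hexosamine route, stood at 24.5 FPKM in MTAC-P and 11.96 FPKM in PC9 (0.97), while GFPT1, the entry enzyme of that route, stood at 32.2 FPKM in MTAC-P and 29.3 FPKM in PC9 (0.13), and both were picked out after their values were seen.

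Of 18 citrate cycle genes compared none was 2-fold apart, where 7.77% of all genes compared were. In this list 8 lay above 0 and the median was -0.08. The 2 most abundant were SDHC, a subunit of succinate dehydrogenase, at 297 FPKM in MTAC-P and 288 FPKM in PC9, and MDH1, cytosolic malate dehydrogenase, at 220.2 FPKM in MTAC-P and 208 FPKM in PC9. ACO1, the cytosolic aconitase, had the widest ratio of this list, at 22.1 FPKM in MTAC-P and 12.4 FPKM in PC9 (0.79). All these values come from 1 library per line and were not tested.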
